A study of Mus musculus with 11 samples.

Results

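The 40 genes described here carry the interferon response and antigen presentation in the mouse. They were taken by symbol from a fixed list, and all 40 were found among the 24411 gene symbols counted in 11 RNA-seq libraries. By role they comprise 2 sensors of viral RNA, 5 transcription factors, 14 antiviral effectors, 6 interferon-induced GTPases, 9 genes of MHC class I presentation and 4 genes of MHC class II presentation. The libraries came from dissected corpus callosum, the myelinated tract between the hemispheres, and from primary neurospheres, floating balls of stem cells and their progeny, cultured from the subventricular zone beside the lateral ventricle. There were 2 callosum libraries labelled Bmal1-/- and 3 wild-type callosum libraries, and 3 neurosphere libraries labelled Bmal1-/- and 3 wild-type neurosphere libraries. All mice were 8 to 10 weeks old, and all neurospheres had been cultured for 1 week with heparin (2 ug/ml) and EGF (20 ng/ml). Bmal1, whose gene symbol is Arntl, encodes a transcription factor of the circadian clock. Genotypes were compared inside each source, and callosum was compared with neurospheres inside each genotype. The labels give neither the strain, the time of day, nor the removed part of Bmal1, and they leave unsaid whether replicates are separate animals, pools or cultures. Spread among replicates, on which every p-value rests, may therefore be technical in part or whole.

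As background, interferons bind receptors on the cell surface, and kinases at the receptor then activate transcription factors. A complex that holds STAT2 and IRF9 binds the interferon-stimulated response element (ISRE) in target promoters, while interferon gamma acts through the gamma-activated sequence (GAS). The induced genes block viral replication, and the immunoproteasome subunits and TAP transporters supply peptides to class I molecules on almost every cell. Class II molecules are loaded with the help of the invariant chain CD74 and are carried mainly by professional antigen-presenting cells, which in the brain are microglia and border macrophages.

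The ISRE is the sequence that ties many of these genes together, so stretches of 50 bases that hold a match upstream of the start are shown here for members described below. They are from RefSeq promoters of GRCm38.p6, 250 bases before to 50 after the start, read 5′ to 3′ on the gene's strand, and the capitals mark a match on either strand to the ISRE core, which is GAAA followed by any 2 bases and another GAAA.
Isg15 (chr4:156200867-156200916, minus strand): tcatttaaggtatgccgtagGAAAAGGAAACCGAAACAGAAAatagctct
Rsad2 (chr12:26456543-26456592, minus strand): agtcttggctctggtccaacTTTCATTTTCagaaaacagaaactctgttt
Bst2 (chr8:71537573-71537622, minus strand): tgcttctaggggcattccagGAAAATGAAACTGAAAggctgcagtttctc
Gbp3 (chr3:142559979-142560028, plus strand): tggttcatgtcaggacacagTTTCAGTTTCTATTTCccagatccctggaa
Gbp7 (chr3:142530263-142530312, plus strand): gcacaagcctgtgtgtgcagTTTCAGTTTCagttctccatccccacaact
Igtp (chr11:58199502-58199551, plus strand): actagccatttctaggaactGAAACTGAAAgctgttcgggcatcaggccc
B2m (chr2:122147528-122147577, plus strand): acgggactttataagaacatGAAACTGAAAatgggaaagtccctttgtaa
H2-T23 (chr17:36032796-36032845, minus strand): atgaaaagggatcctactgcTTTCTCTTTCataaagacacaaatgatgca
In Isg15 overlapping matches give a longer run of capitals, as they do in Bst2 and Gbp3.

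Promoters were found for 32 of the 40 members, some with more than 1, and a gene is counted if any of its promoters held the letters. The ISRE letters occurred in 17 of the 32 (53.1%), against 3.99% of 27025 genes with a promoter. They were present in all 5 GTPase genes with a promoter, in both RNA sensors, in 7 of 11 antiviral effectors and in 2 of 8 class I genes, B2m and H2-T23. Among transcription factors 1 of 4 held them (Stat2), and neither of the 2 class II promoters did. The GAS letters TTCNNNGAA occurred in 8 of 32 (25%, against 9.55% of genes). CCAAT occurred in 16 of 32 (50%, against 41.1%), and 7 of the 8 class I genes held it. The E-box CACGTG, the letters that CLOCK and BMAL1 bind, occurred in 0 of the 32 members, against 8.09% of genes. All were searched on both strands and a match is a description of letters, not a site.

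The genotype labels could not be checked from the targeted gene, since Arntl stood at 32.6 and 40.8 CPM (each count relative to its library's total, with TMM factors over the 11 libraries) in callosum labelled Bmal1-/-, against 39.7, 36.3 and 33.0 CPM in wild-type callosum. In neurospheres it stood at 40.5, 42.3 and 48.2 CPM in those labelled Bmal1-/-, against 37.9, 48.8 and 45.3 CPM in wild type. Gene counts summed to 17513165 to 17836955 per callosum library and 17450270 to 19717848 per neurosphere library. A floor of 3 counts equals 0.202 to 0.211 CPM in callosum and 0.131 to 0.136 CPM in neurospheres, which covers counting error only. The summed level of 8 oligodendrocyte markers was 21720 to 33720 CPM in callosum and 1394 to 2366 CPM in neurospheres, and that of 9 progenitor markers 276 to 371 CPM and 2421 to 3265 CPM. Callosum also held 6815 to 8973 CPM of 8 neuronal markers and 771 to 2701 CPM of 8 striatal neuron markers, so the dissected tissue was not white matter alone. In such bulk samples fewer cells of a type and less RNA per cell cannot be told apart. Replicate 1 of the neurospheres labelled Bmal1-/- stood apart, with 22.6% of its reads unmapped, against 13.7% to 16.2% in the other neurosphere libraries.

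At rest, without infection or added interferon in the labels, every member had a count in at least 1 library. Levels between genes were compared as CPM per kilobase of the longest transcript. In callosum the highest 4 were Ifi27, an interferon-induced mitochondrial protein, at 23.3 CPM per kilobase in the libraries labelled Bmal1-/- and 17.9 in wild type, and Tapbp, which encodes tapasin of the class I loading complex, at 18.3 and 16.8. They also took in Ifitm3, which blocks viral entry, at 17 in those labelled Bmal1-/- and 15.2 in wild type, and the class I light chain B2m, at 13.9 and 20.1. In neurospheres B2m led at 146 CPM per kilobase in the libraries labelled Bmal1-/- and 126 in wild type, then Ifitm3 at 124 and 92.8, and the class I heavy chain H2-K1 at 38.4 and 32.7. The lowest in callosum were Ifi44, at 0.00862 CPM per kilobase in those labelled Bmal1-/- and 0.00551 in wild type, and the GTPase gene Iigp1, at 0.0338 and 0.00718. The 40 genes together took 287 and 302 CPM in callosum labelled Bmal1-/- and 270, 288 and 274 CPM in wild-type callosum. In neurospheres they took 777, 540.1 and 611 CPM in those labelled Bmal1-/- and 529, 599 and 559 CPM in wild type. The highest of these sums was that of neurosphere replicate 1 labelled Bmal1-/-.

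**Figure D1:**
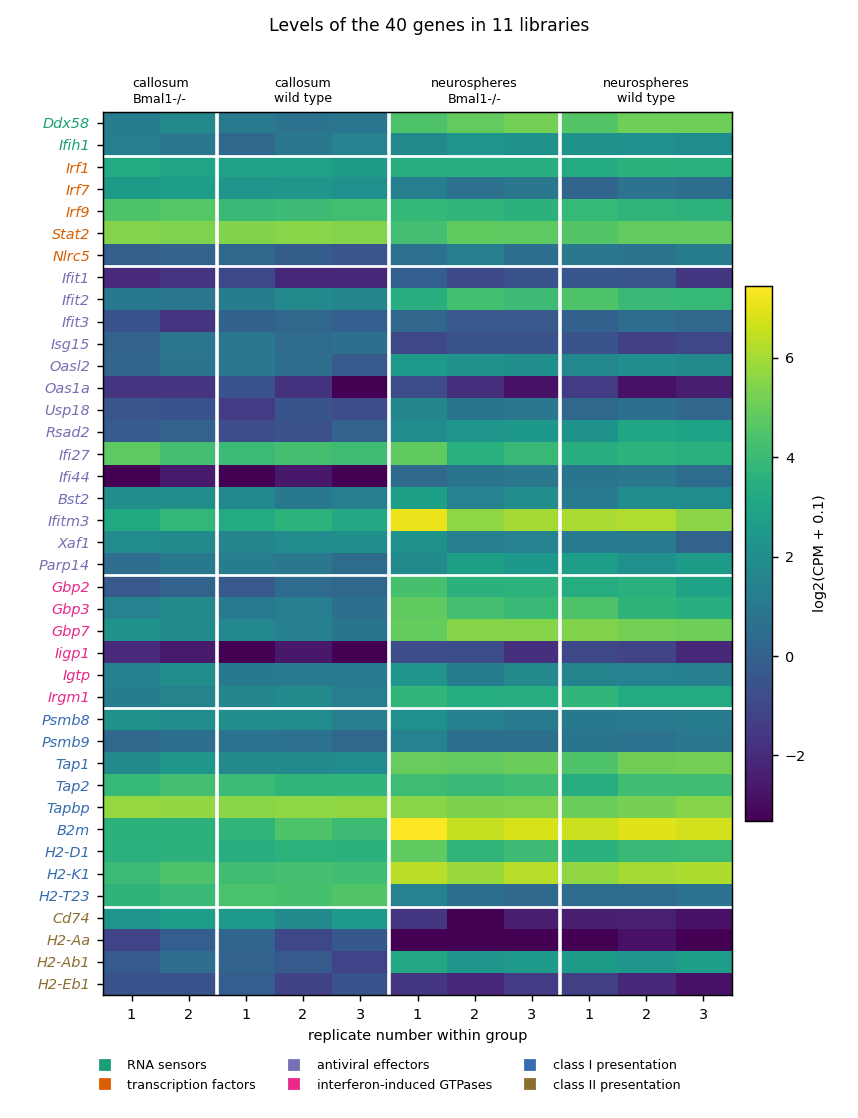
Level of each of the 40 genes as log2(CPM + 0.1), by colour, in the 11 libraries (columns, grouped as callosum labelled Bmal1-/-, wild-type callosum, neurospheres labelled Bmal1-/- and wild-type neurospheres), with gene names coloured by role. Columns differ far more between callosum and neurospheres than between genotypes, as for H2-T23 and Cd74 (higher in callosum) and Ifitm3 and B2m (higher in neurospheres).

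Interferon genes themselves were at or near 0. Of 11 examined, including Ifnb1, Ifng, Ifnk and several Ifna genes, all 11 were at 0 in each of the 5 callosum libraries and 9 were at 0 in each of the 6 neurosphere libraries. A count of 0 allows up to the floor given above. The receptor subunit Ifnar1 stood at 33.1 and 37.8 CPM in callosum labelled Bmal1-/-, against 38.0, 40.5 and 37.1 CPM in wild-type callosum, and at 99.1 to 117 CPM in neurospheres. The receptor was thus measured in both sources.

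Between genotypes in the callosum, no member was higher or lower past the threshold. Of 34 members that passed the filter on low counts, 0 were called by the quasi-likelihood test of edgeR (adjusted p under 0.05), 0 by DESeq2 and 0 by limma-voom, where 0.909% of 14198 tested genes were called by edgeR, 2.32% by DESeq2 and 0.789% by limma-voom. The 6 members that did not pass the filter were Ifit1, Oas1a, Usp18, Ifi44, Iigp1 and H2-Eb1. At an unadjusted p under 0.05, 4 were higher (Irf9, Bst2, Gbp7 and Igtp) and 3 lower (H2-T23, B2m and Ifit3), 20.6% of the 34 against 13.9% of all tested genes (6.47% higher and 7.4% lower). The median log2 fold change was 0.16, against -0.0059 over all genes, and 23 of 34 lay above 0 (49.1% of all genes did). The smallest adjusted p of a member was 0.126.

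H2-T23, which encodes the non-classical class I molecule Qa-1, a ligand of inhibitory receptors on natural killer cells, stood at 12.6 and 15.3 CPM in callosum labelled Bmal1-/-, against 21, 19.7 and 22.7 CPM in wild-type callosum. Both libraries labelled Bmal1-/- lay below all wild-type ones. The difference was -0.58 ± 0.15 on the log2 scale (SE; 95% interval -0.91 to -0.26; edgeR adjusted p = 0.126). Other genes hold 16% of its 50-base stretches, among them H2-T-ps and H2-Q1, so part of its count is uncertain. B2m stood at 11.9 and 11.9 CPM in callosum labelled Bmal1-/-, against 13.1, 22 and 16.6 CPM in wild-type callosum, or -0.52 ± 0.22 on the log2 scale (SE; edgeR adjusted p = 0.335). The classical heavy chains did not share this direction. H2-K1 had 16.2 and 21.9 CPM in callosum labelled Bmal1-/-, against 17.8, 19.2 and 17.7 CPM in wild-type callosum, and H2-D1 had 11.8 and 12.1 CPM, against 10.3, 12.4 and 12.2 CPM. Their log2 fold changes were 0.08 ± 0.16 and 0.06 ± 0.16 (SE).

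Among transcription factors, Irf9, which encodes the DNA-binding partner of STAT2, stood at 21.6 and 24.4 CPM in callosum labelled Bmal1-/-, against 15.6, 16.8 and 18.1 CPM in wild-type callosum, with no overlap. Irf9 had a log2 fold change of 0.47 ± 0.13 (SE; 95% interval 0.16 to 0.77; edgeR adjusted p = 0.187). Irf1, an activator of class I genes, had 9.52 and 7.70 CPM in callosum labelled Bmal1-/-, against 7.30, 6.99 and 5.82 CPM in wild-type callosum (log2 fold change 0.38 ± 0.19, SE; edgeR adjusted p = 0.412). Irf7, which amplifies type I interferon, had 5.71 and 6.44 CPM in those labelled Bmal1-/-, against 4.87, 5.11 and 4.16 CPM in wild type. Irf7 lies on chromosome 7 (141263183 to 141266499), as do Ifitm3 (141009590 to 141010744) and Arntl (113178471 to 113314126). Stat2 showed nothing of the kind, at 43.8 and 41.3 CPM in callosum labelled Bmal1-/-, against 42.7, 45.8 and 43.2 CPM in wild-type callosum (log2 fold change -0.03, 95% interval -0.28 to 0.21).

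The sensors stood at a few CPM in callosum, as did several effectors. Ddx58, which encodes the RNA sensor RIG-I, stood at 2.18 and 3.29 CPM in callosum labelled Bmal1-/-, against 2.15, 1.61 and 1.80 CPM in wild-type callosum (log2 fold change 0.57, 95% interval -0.10 to 1.25). Ifih1, which encodes the sensor MDA5, had 2.33 and 1.89 CPM in those labelled Bmal1-/-, against 1.11, 1.88 and 2.63 CPM in wild type, with overlap. Bst2, which encodes tetherin and holds budding virus on the cell, had 3.88 and 4.06 CPM in callosum labelled Bmal1-/-, against 3.13, 1.95 and 2.42 CPM in wild-type callosum (log2 fold change 0.68 ± 0.26, SE; edgeR adjusted p = 0.307). Ifit3, which binds with other IFIT proteins to viral RNA, had 0.563 and 0.21 CPM in callosum labelled Bmal1-/-, against 0.904, 1.14 and 0.831 CPM in wild-type callosum. A 95% interval of -2.49 to -0.07 surrounded its log2 fold change of -1.28 (edgeR adjusted p = 0.336), and 51.2% of its 50-base stretches occur in Ifit3b. Among GTPases, which attack the vacuoles of intracellular pathogens, Gbp7 had 4.58 and 3.43 CPM in callosum labelled Bmal1-/-, against 3.20, 2.49 and 1.73 CPM in wild-type callosum. Igtp had 2.54 and 3.85 CPM in those labelled Bmal1-/-, against 1.95, 2.15 and 2.15 CPM in wild type. Their log2 fold changes were 0.71 and 0.63 (edgeR adjusted p = 0.341 and 0.359).

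The 9 members whose 2 callosum libraries labelled Bmal1-/- lay above every wild-type one comprised Ddx58, Irf1, Irf7, Irf9, Bst2, Gbp3, Gbp7, Igtp and Tapbp, and the 4 that lay below comprised Ifit2, Ifit3, B2m and H2-T23. Over all tested genes such separation occurred upward in 13.7% and downward in 18.7%, so 13 of 34 (38.2%) stands beside a background of 32.5%. The summed level of 14 microglia markers was 760 to 833 CPM in callosum labelled Bmal1-/- and 695 to 769 CPM in wild-type callosum. Endothelial markers summed to 249 to 291 CPM in those labelled Bmal1-/- and 198 to 276 CPM in wild type. Of 12 markers of other leucocytes, Cd3d and Cd8a of T cells were at 0 in all 5 libraries. Cd3e, S100a8, S100a9 and Nkg7 had reads in callosum labelled Bmal1-/- alone, at up to 0.212 CPM, which is at or under the floor of 3 counts. The summed level of the 12 was 18.7 and 20.6 CPM in callosum labelled Bmal1-/-, against 19.8, 56.7 and 30.6 CPM in wild-type callosum, most of it Cd4 in wild type. The 8 striatal markers summed to 771 and 1004 CPM in callosum labelled Bmal1-/-, against 820, 2701 and 1530 CPM in wild-type callosum, and 8 of 8 had a log2 fold change below 0 (median -1.22, 0 called by edgeR). The 7 markers of choroid plexus and blood summed to 16.4 and 12.96 CPM in those labelled Bmal1-/-, against 25.8, 50.1 and 186 CPM in wild type, with 5 of 5 tested below 0 (median -1.54, 0 called by edgeR). In wild-type callosum B2m was lowest and highest in the libraries lowest and highest in striatal markers, an order that rests on 3 libraries. With the striatal level as a covariate its log2 fold change was -0.16 (edgeR adjusted p = 0.749), and without wild-type replicate 2 it was -0.30 (0.574), while that of H2-T23 with the covariate was -0.59 (0.197). Striatal level and genotype ran partly together, and with 5 libraries the covariate cannot separate them. The part of striatal tissue or of any other cell type in the values above was not tested.

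Outside the 40, a list of 100 other genes of the pathway gave 1 call in the callosum. Lgals3bp, a secreted glycoprotein gene induced by interferon, was higher, at 54.2 and 46.4 CPM in callosum labelled Bmal1-/-, against 30.7, 31.3 and 26.5 CPM in wild-type callosum. On the log2 scale that is 0.79 ± 0.13 (SE; edgeR adjusted p = 0.0303), in 2 of 2 libraries. The adjusted p ranged over 0.0238 to 0.2 when 1 library was left out, and it was 0.0547 with offsets for GC content and transcript length and 0.0865 with the level of striatal markers as a covariate. With 64 of the 100 tested, this is 1.56% called against a background of 0.909%. The other 63 were not called by edgeR, and DESeq2 called 2 of the 64. Cmpk2, a mitochondrial nucleotide kinase gene beside Rsad2 in the same response, had 26.7 and 29.0 CPM in callosum labelled Bmal1-/-, against 18.4, 14.3 and 19.3 CPM in wild-type callosum (log2 fold change 0.70 ± 0.15, SE; edgeR adjusted p = 0.0845, DESeq2 adjusted p = 0.0149). Cmpk2 was chosen after its values were seen.

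**Figure D2:**
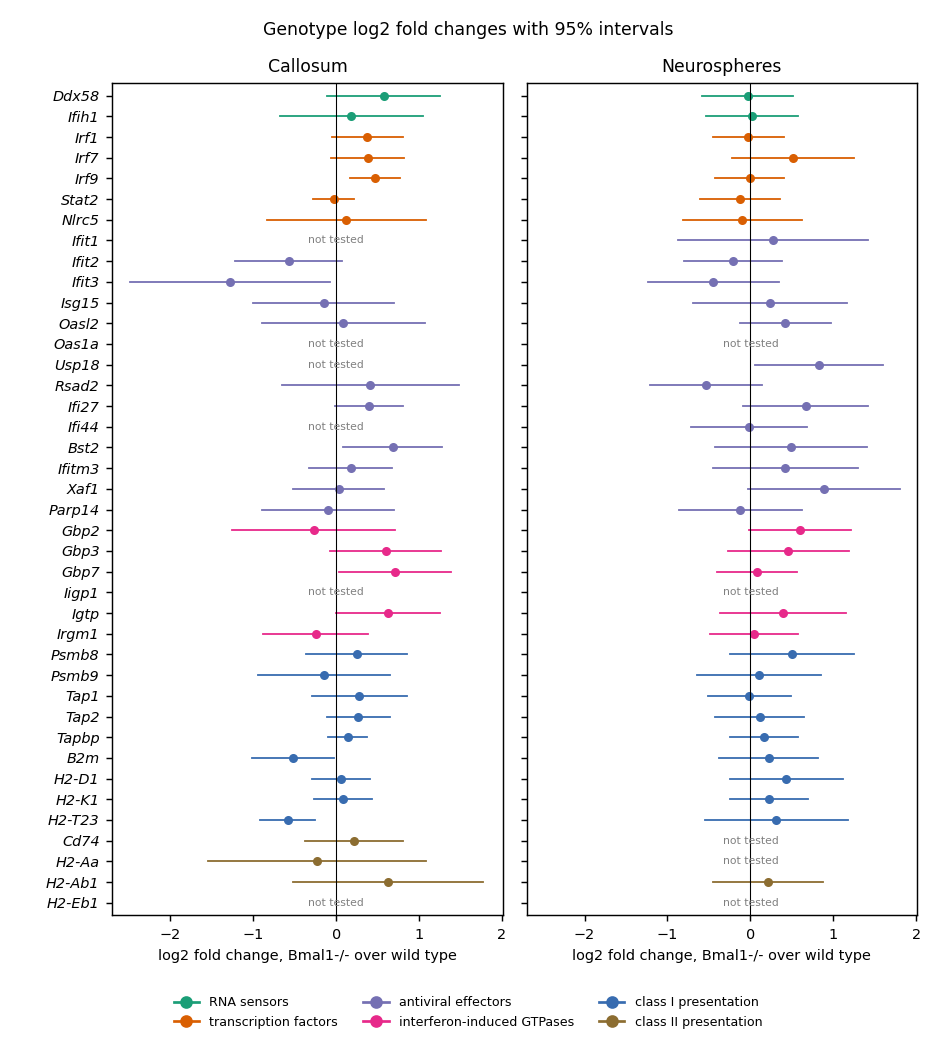
Log2 fold change of libraries labelled Bmal1-/- over wild type for each gene (points) with its 95% interval (lines), in callosum on the left and neurospheres on the right, coloured by role. Genes that did not pass the filter on low counts are marked as not tested. In the callosum H2-T23 lies lowest relative to its interval (-0.91 to -0.26), and no gene of either panel passed the adjusted threshold.

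Between genotypes in neurospheres, again no member was called. Of 35 members tested, 0 passed with edgeR, DESeq2 or limma-voom, where edgeR called 0.00716% of 13968 genes, DESeq2 0.243% and limma-voom 0.0143%. Oas1a, Iigp1, Cd74, H2-Aa and H2-Eb1 did not pass the filter. At an unadjusted p under 0.05, 1 was higher and 0 lower (2.86%, against 3.02% of all genes, of which 1.95% were higher and 1.07% lower), and the smallest adjusted p was 0.798. The median log2 fold change was 0.21, against -0.0059 over all genes, with 24 of 35 above 0 (49.2% of all genes).

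The member at an unadjusted p under 0.05 was Usp18, a protease that removes ISG15 and dampens receptor signalling. It stood at 2.96, 1.70 and 1.88 CPM in neurospheres labelled Bmal1-/-, against 1.12, 1.49 and 1.06 CPM in wild-type neurospheres, without overlap (log2 fold change 0.83, 95% interval 0.06 to 1.60). Xaf1, a pro-apoptotic partner of XIAP, had 4.43, 2.36 and 2.68 CPM in neurospheres labelled Bmal1-/-, against 2.01, 2.12 and 0.976 CPM in wild type. Gbp2, a GTPase of the guanylate-binding family, had 19.7, 12.1 and 12.2 CPM in those labelled Bmal1-/-, against 10.0, 11.4 and 7.59 CPM in wild type. The log2 fold changes of Xaf1 and Gbp2 were 0.88 ± 0.40 and 0.60 ± 0.27 (SE; edgeR adjusted p = 0.798 for both). With Oasl2, these are the 4 members whose groups did not overlap, all of them higher in the libraries labelled Bmal1-/-, or 11.4% of members against 12% of genes in either direction, 6.29% upward and 5.74% downward.

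Gbp3 had 28.1, 19.3 and 15.4 CPM in neurospheres labelled Bmal1-/-, against 21.5, 12.9 and 11.2 CPM in wild type, with overlap. The sensors and Stat2 had log2 fold changes between -0.13 and 0.02, with wide intervals. Ddx58 had 22, 29.4 and 36.6 CPM in neurospheres labelled Bmal1-/-, against 23.3, 33.5 and 33.2 CPM in wild type (log2 fold change -0.03, 95% interval -0.58 to 0.52), and Ifih1 had 3.41, 4.76 and 4.52 CPM, against 4.47, 4.30 and 3.73 CPM. Stat2 had 18.7, 28.3 and 27.5 CPM in those labelled Bmal1-/-, against 23.6, 28.8 and 29.1 CPM in wild type. Irf7 had 2.39, 1.53 and 1.84 CPM in those labelled Bmal1-/-, against 1.03, 1.63 and 1.38 CPM in wild type (log2 fold change 0.51, 95% interval -0.23 to 1.25). Among pathway genes that are not members, 0 of those tested were called, and Gbp5 had the smallest p, at 2.66, 3.27 and 2.89 CPM in neurospheres labelled Bmal1-/-, against 2.10, 1.72 and 1.33 CPM in wild type (log2 fold change 0.77 ± 0.28, SE; edgeR adjusted p = 0.798).

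Many of the high values came from 1 library. In neurosphere replicate 1 labelled Bmal1-/-, B2m reached 175 CPM, against 91.0 and 111 CPM in the other two libraries so labelled and 96.4, 122 and 105 CPM in wild type. Ifitm3 reached 139 CPM, against 49.2 and 64.1 CPM in the other two and 68.3, 72.1 and 48.3 CPM in wild type. H2-D1 (28 CPM), Psmb8 (4.20 CPM), Bst2 (6.68 CPM), Ifi27 (28.4 CPM) and H2-Ab1 (8.98 CPM) also peaked there. The same library had 144 CPM of the constitutive proteasome subunit gene Psmb7, against 82.5 and 102 CPM in the other two and 73.5 to 81.3 CPM in wild type. Psmb6 followed, with 133 CPM against 70.4 and 81.4 CPM, and 63.3 to 71.6 CPM in wild type. Both genes were picked for their small p in this comparison, and 2 of the 3 constitutive subunit genes examined had a log2 fold change above 0. Most of the 14 microglia markers peaked there too, with a summed level of 308 CPM. That level was 207 and 139 CPM in replicates 2 and 3 so labelled and 192 to 218 CPM in wild type. C1qa stood at 52.8 CPM, against 15.5 and 4.96 CPM in replicates 2 and 3 and 10.9 to 13.4 CPM in wild type. P2ry12 hardly differed from wild-type replicate 1 (1.682 and 1.565 CPM). Sall1 was lowest there, at 43.2 CPM against 89.0 to 113 CPM in the other neurosphere libraries. Long transcripts had lower values in that comparison as a whole. Spearman's rho of the log2 fold change with transcript length was -0.58 over 13487 genes and -0.61 over the 35 members. With offsets for GC content and length, the members' median was 0.11 and 20 of 35 lay above 0 (47.8% of all genes did). Under the offsets, rho with GC content went from 0.27 to -0.18 over all genes and from 0.25 to -0.27 over the members. The offset values in this comparison therefore carry a GC trend of opposite sign. The part of microglia in the neurosphere values above was not tested.

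No member passed a test of whether the genotype difference itself differed between sources. In a single model of 11 libraries, 0 of 37 members passed for the difference of the genotype effects (callosum minus neurospheres) with edgeR, and 0 with DESeq2 or limma-voom, against backgrounds of 0.0131%, 0.242% and 0.0131%. H2-T23 alone had an unadjusted p under 0.05 (4.28% of all genes did), at -0.91 ± 0.40 (SE; edgeR adjusted p = 0.999). In neurospheres H2-T23 stood at 2.66, 1.44 and 1.18 CPM in those labelled Bmal1-/-, against 1.34, 1.27 and 1.64 CPM in wild type. Of 32 members tested in both sources, 20 had the same sign (62.5%), against 61.7% of all genes, and these 2 comparisons share no library.

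Callosum and neurospheres differed widely in these genes, as they did in most genes. In wild-type libraries 10 of 35 tested members were called higher in callosum (28.6%, against 42% of all genes) and 19 lower (54.3%, against 43.8%), or 82.9% against 85.8% in either direction. In libraries labelled Bmal1-/-, 6 of 36 were called higher (35.1% of all genes) and 18 lower (37.5% of all genes), where 72.6% of all genes were called. The median log2 fold change of callosum over neurospheres was -1.13 in wild type, against -0.06 over all genes. Of the 35 members tested in both genotypes, 34 had the same sign (97.1%, against 95.2% of all genes), and the 23 called in both had the same sign. Leaving out 1 library ended the call of 4 of the 29 members called in wild type (Irf9, Xaf1, Tapbp and Psmb8) and of 8 of the 24 called in libraries labelled Bmal1-/- (Ifih1, Irf9, Stat2, Ifit1, Isg15, Oasl2, Usp18 and Parp14), with no change of sign. In wild type the adjusted p reached 0.0514 for Xaf1 without callosum replicate 3, and up to 0.162 for Irf9, 0.0846 for Tapbp and 0.0842 for Psmb8 without any 1 of 3 or 4 libraries of either source. In libraries labelled Bmal1-/- it reached 0.245 for Isg15 without callosum replicate 2, 0.178 for Ifih1 without the same library, and 0.121 for Stat2, 0.103 for Parp14, 0.208 for Ifit1 and 0.0521 for Oasl2 without callosum replicate 1. For Usp18 it was 0.0609 and 0.0738 without callosum replicates 1 and 2, and for Irf9 at most 0.0966, without callosum replicate 2. Isg15 also lost its call without neurosphere replicate 2 (0.0511), and Ifih1 and Irf9 without neurosphere replicate 2 or 3. Ifit1 did not pass the filter on low counts within callosum or between sources in wild type, and without neurosphere replicate 1 or 3 it was not tested. It entered the source test in libraries labelled Bmal1-/- through its neurosphere counts alone, so its call there is no separate support.

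The difference between sources followed GC content across the genome, and each result between sources stands beside that fact. Spearman's rho of the log2 fold change with the GC content of the longest transcript was 0.57 over 14210 genes in wild type and 0.54 over the 35 members. The median log2 fold change was -2.35 in genes with the lowest GC content (up to 44.2%) and 1.62 in those with the highest (from 55.8%). Offsets for GC content and transcript length, fitted per library and chosen after the data were seen, gave 5 members called higher and 21 lower in wild type (backgrounds 39.4% and 40.6%). In libraries labelled Bmal1-/- they gave 4 higher and 23 lower (34% and 35.3%). Composition of the RNA, library preparation and source cannot be told apart here. The members called in the same direction in both genotypes, with and without the offsets, were 2 higher in callosum and 14 lower, and the accounts that follow keep to them unless stated. No share of all genes under this joint rule is given here, so the 2 counts stand without a background and only choose which members are described.

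**Figure D3:**
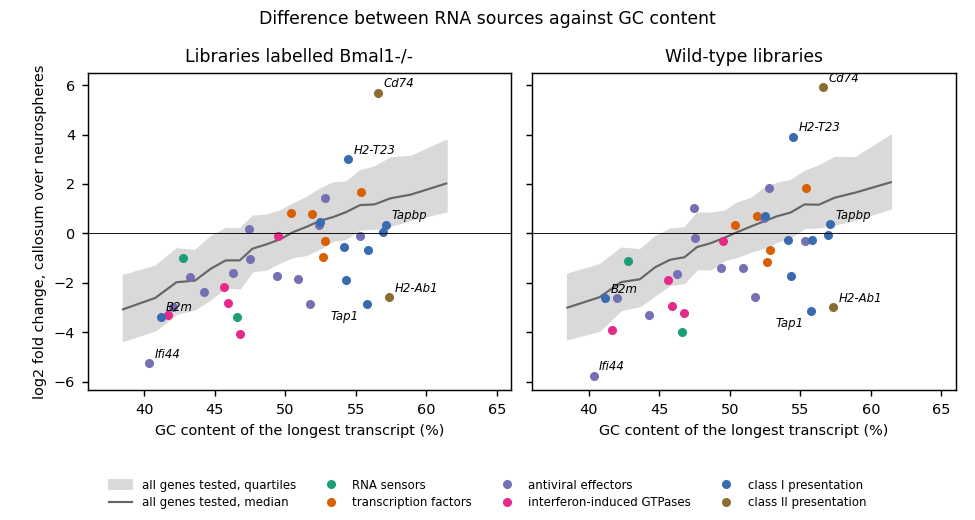
Log2 fold change of callosum over neurospheres against the GC content of the longest transcript, in libraries labelled Bmal1-/- on the left and in wild-type libraries on the right. The line and band are the median and quartiles of all tested genes in 20 bins of GC content, and points are the tested members by role. The median rises with GC content, B2m lies near it, and Cd74, H2-T23, Tap1 and H2-Ab1 lie far from it.

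The 2 members higher in callosum under every one of these settings were H2-T23 and Cd74. H2-T23 stood at 12.6 and 15.3 CPM in callosum against 2.66, 1.44 and 1.18 CPM in neurospheres labelled Bmal1-/-, and at 21, 19.7 and 22.7 CPM in callosum against 1.34, 1.27 and 1.64 CPM in neurospheres of wild type. In wild type the log2 fold change was 3.90 ± 0.18 (SE; edgeR adjusted p = 3.85e-08), and 2.97 with the offsets. Cd74 stood at 4.93 and 6.23 CPM in callosum labelled Bmal1-/- and at 5.63, 3.36 and 5.61 CPM in wild-type callosum. In neurospheres it had 7 reads over the 3 libraries labelled Bmal1-/- and 5 over the 3 wild-type ones, near the floor, against 159 and 212 reads in callosum of the 2 genotypes, in the same order. Cd74 did not pass the filter on low counts within neurospheres, so it entered the source tests through its callosum counts alone. Its calls (edgeR adjusted p = 0.00043 in those labelled Bmal1-/- and 8.47e-07 in wild type) are therefore no separate support. The size of the difference is uncertain.

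Class II genes did not move as a set. H2-Ab1, the beta chain of I-A, was lower in callosum, at 0.775 and 1.33 CPM against 8.98, 4.80 and 5.57 CPM in neurospheres labelled Bmal1-/-, and at 0.973, 0.739 and 0.346 CPM against 5.68, 4.75 and 6.26 CPM in neurospheres of wild type. H2-Ab1 had log2 fold changes of -2.59 ± 0.46 in libraries labelled Bmal1-/- and -2.99 ± 0.33 in wild type (SE; edgeR adjusted p = 0.00219 and 1.63e-05). The alpha chain of the same molecule, H2-Aa, ran the other way, with 0.352 and 0.841 CPM in callosum labelled Bmal1-/- and 0.404 to 1.04 CPM in wild-type callosum, against 0 reads in all neurospheres labelled Bmal1-/- and 1 read in wild-type ones. H2-Eb1, the beta chain of I-E, had 0.336 to 0.834 CPM in callosum and 0.0444 to 0.313 CPM in neurospheres. Neither of these passed the filter. Ciita, the master activator of class II transcription, stood at 2.40 and 2.73 CPM in callosum labelled Bmal1-/- and 2.64, 3.09 and 2.91 CPM in wild-type callosum, against 0.443, 0.611 and 0.395 CPM in neurospheres labelled Bmal1-/- and 0.715, 0.226 and 0.355 CPM in wild-type ones. Neurospheres thus held reads of H2-Ab1 with Cd74, H2-Aa and Ciita near the floor or low. None of the 50-base stretches of H2-Ab1 occurs in another gene's transcripts. The 14 microglia markers summed to 695 to 833 CPM in callosum and 139 to 308 CPM in neurospheres, and Tmem119, a marker that microglia lose in culture, stood at 42.1 to 61.9 CPM and 0 to 0.398 CPM. The 6 border macrophage markers summed to 1.83 and 1.26 CPM in callosum and 1.27 to 6.82 CPM in neurospheres labelled Bmal1-/-. In wild type they summed to 2.15 to 4.57 CPM and 3.99 to 5.11 CPM, in the same order. Called lower in callosum were 2 of 3 tested in wild type and 1 of 4 in libraries labelled Bmal1-/- (43.8% and 37.5% of all genes), and 0 were called higher. Only 2 of the 6 passed the filter within callosum. Mrc1 and Ms4a7 had 19 and 6 reads in wild-type callosum, against 186 and 39 in wild-type neurospheres, so their calls are no separate support. Pf4, F13a1 and Lyve1 ran the other way in wild type, at means of 0.778, 0.480 and 0.183 CPM in callosum against 0.165, 0.149 and 0.0149 CPM in neurospheres. The part of microglia or border macrophages in the class II values was not tested.

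**Figure D4:**
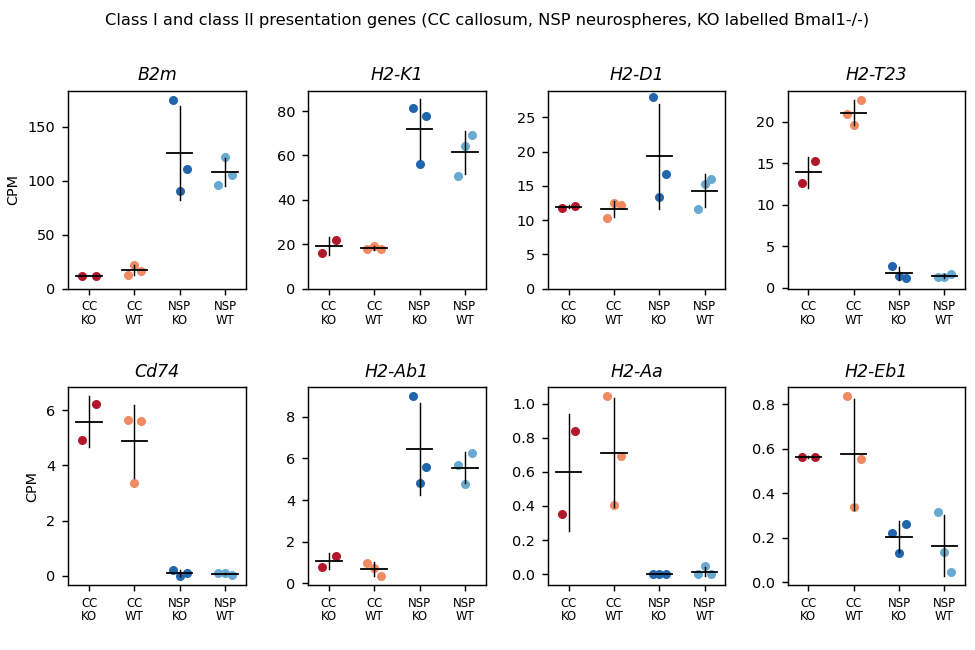
CPM of 4 class I genes (top) and 4 class II genes (bottom) in callosum (CC) and neurospheres (NSP), with libraries labelled Bmal1-/- (KO) left of wild type. Points are libraries, horizontal bars group means and vertical bars the SD (n = 2 for callosum labelled Bmal1-/-, n = 3 elsewhere). H2-T23 and Cd74 are high in callosum, H2-Ab1 and H2-K1 in neurospheres, and B2m peaks at 175 CPM in 1 neurosphere library labelled Bmal1-/-.

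Class I genes did not all move one way either, with 3 higher and 3 lower of 9 called in wild type and 1 higher and 3 lower in libraries labelled Bmal1-/-. Over all genes 42% were called higher and 43.8% lower in wild type, and 35.1% and 37.5% in libraries labelled Bmal1-/-. The wild-type counts, 33.3% each way, are thus no more frequent than in all genes. With the offsets the counts were 1 higher and 6 lower in wild type (39.4% and 40.6% of all genes). In those labelled Bmal1-/- they were 1 higher and 7 lower (34% and 35.3% of all genes), the 1 higher being H2-T23 in both. H2-K1 was lower in callosum, at 16.2 and 21.9 CPM against 81.5, 56.3 and 77.9 CPM in neurospheres labelled Bmal1-/-, and at 17.8, 19.2 and 17.7 CPM against 50.8, 64.1 and 69.2 CPM in neurospheres of wild type (log2 fold change -1.90 and -1.74, in the same order). B2m, whose product pairs with every class I heavy chain, fell far below its neurosphere level at 13.1 to 22 CPM in wild-type callosum, against 96.4 to 122 CPM in wild-type neurospheres (log2 fold change -2.63 ± 0.19, SE; edgeR adjusted p = 7.47e-07). With the offsets that difference was -0.11 (edgeR adjusted p = 0.46), and B2m has a GC content of 41.2%. In libraries labelled Bmal1-/- the values were -3.38 and, with the offsets, -0.60. Tapbp turned from called higher in callosum (0.38, edgeR adjusted p = 0.0276) to called lower (-1.03, 7.54e-05) in wild type with the offsets, at a GC content of 57.1%. B2m thus stayed below 0 in both genotypes and lost its call in wild type (edgeR adjusted p = 0.0177 with the offsets in libraries labelled Bmal1-/-), while the direction of Tapbp turned.

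Tap1 and Psmb9 start 226 bases apart on opposite strands of chromosome 17. The 225 bases between their starts are shown because both genes read outward from them, on the plus strand of GRCm38.p6 with the single CCAAT match in capitals.
Psmb9-Tap1 (chr17:34187331-34187555, plus strand): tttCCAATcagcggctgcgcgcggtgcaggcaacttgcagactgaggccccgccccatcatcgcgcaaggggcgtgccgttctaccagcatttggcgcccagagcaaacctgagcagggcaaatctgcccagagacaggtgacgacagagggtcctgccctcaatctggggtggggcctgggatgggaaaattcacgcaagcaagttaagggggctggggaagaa
Tap1, a subunit of the peptide transporter, had 3.24 and 5.11 CPM in callosum against 31, 29.3 and 32.3 CPM in neurospheres labelled Bmal1-/-, and 3.27, 3.49 and 3.67 CPM against 22, 35 and 36.4 CPM in wild type. Its log2 fold change was -2.86 ± 0.29 in those labelled Bmal1-/- and -3.15 ± 0.22 in wild type (SE; edgeR adjusted p = 0.000166 and 6.94e-07). Psmb9, an immunoproteasome subunit, had 1.13 and 1.40 CPM in callosum against 2.61, 1.48 and 1.49 CPM in neurospheres labelled Bmal1-/-, and 1.60, 1.55 and 1.11 CPM against 1.70, 1.63 and 1.86 CPM in wild type. Its log2 fold change was -0.54 ± 0.43 in those labelled Bmal1-/- and -0.27 ± 0.27 in wild type (SE; edgeR adjusted p = 0.297 and 0.357). With the offsets Psmb9 was called lower too, at -1.33 in those labelled Bmal1-/- and -1.15 in wild type (edgeR adjusted p = 0.0152 and 0.00306), beside -4.16 and -4.43 for Tap1. Without them, the 95% intervals of the 2 genes in wild type, -3.65 to -2.64 and -0.88 to 0.33, lie apart. In GENCODE M21, which holds further transcripts, exons of the 2 genes overlap on opposite strands, and without strand reads there cannot be told apart.

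The other members called lower in callosum in all these settings were Ddx58, 6 antiviral effectors (Ifit2, Oasl2, Usp18, Rsad2, Ifi44 and Ifitm3) and 4 GTPases (Gbp2, Gbp3, Gbp7 and Irgm1). Ddx58 had 2.18 and 3.29 CPM in callosum against 22 to 36.6 CPM in neurospheres labelled Bmal1-/-, and 1.61 to 2.15 CPM against 23.3 to 33.5 CPM in wild type. Its log2 fold changes were -3.40 ± 0.36 and -4.00 ± 0.21, in that order. Ifih1, the other sensor, turned sign with the offsets, with -1.13 in wild type (edgeR adjusted p = 0.00582) against 0.68 with them (0.062). Gbp7 had 4.58 and 3.43 CPM in callosum against 29.7, 45.1 and 45.2 CPM in neurospheres labelled Bmal1-/-, and 3.20, 2.49 and 1.73 CPM against 42.7, 37.2 and 33.7 CPM in wild type. The log2 fold change in wild type was -3.92 ± 0.21 (SE), and -1.80 with the offsets. Irgm1, a regulator of the other immunity-related GTPases, had 2.18 and 2.73 CPM in callosum against 10.0 to 13.7 CPM in neurospheres labelled Bmal1-/-, and 2.36 to 3.49 CPM against 9.45 to 13.5 CPM in wild type. Igtp did not follow, at log2 fold changes of -0.09 and -0.32, neither of them called. Ifi44 had 1 read over the 2 callosum libraries labelled Bmal1-/- and 1 over the 3 wild-type ones, against 1.24 to 1.85 CPM in all neurosphere libraries. Ifi44 and Usp18 did not pass the filter on low counts within callosum. They entered the source tests through their neurosphere counts alone, so their calls are no separate support. Rsad2, which encodes the antiviral enzyme viperin, had 0.775 and 0.981 CPM in callosum against 3.58 to 5.22 CPM in neurospheres labelled Bmal1-/-, and 0.487 to 0.97 CPM against 4.47 to 8.05 CPM in wild type.

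A few members were higher in callosum in part of the settings. Isg15, the ubiquitin-like modifier, had 0.986 and 1.75 CPM in callosum against 0.398, 0.568 and 0.57 CPM in neurospheres labelled Bmal1-/-, and 1.88, 1.28 and 1.46 CPM against 0.581, 0.317 and 0.399 CPM in wild type. The groups did not overlap in either genotype, and the log2 fold changes were 1.43 ± 0.45 and 1.82 ± 0.35 (SE; edgeR adjusted p = 0.0241 and 0.000864). With the offsets the call of Isg15 held in wild type (0.00503) and ended in libraries labelled Bmal1-/- (0.0903). Irf7 had 5.71 and 6.44 CPM in callosum against 1.53 to 2.39 CPM in neurospheres labelled Bmal1-/-, and 4.16 to 5.11 CPM against 1.03 to 1.63 CPM in wild type (log2 fold change 1.68 and 1.82, and 0.56 and 0.66 with the offsets). Stat2 had 43.8 and 41.3 CPM in callosum against 18.7 to 28.3 CPM in neurospheres labelled Bmal1-/-, and 42.7 to 45.8 CPM against 23.6 to 29.1 CPM in wild type (0.80 and 0.71, and 0.27 and 0.23 with the offsets). Xaf1 had 3.52 and 3.50 CPM in callosum against 4.43, 2.36 and 2.68 CPM in neurospheres labelled Bmal1-/-, and 2.85 to 4.02 CPM against 0.976 to 2.12 CPM in wild type (0.17 and 1.04). Psmb8, another immunoproteasome subunit, had 4.44 and 3.57 CPM in callosum against 2.10 to 4.20 CPM in neurospheres labelled Bmal1-/-, and 2.49 to 4.03 CPM against 1.97 to 2.22 CPM in wild type (0.45 and 0.72). Nlrc5, the activator of class I genes, was lower in wild-type callosum, at 0.623 to 1.11 CPM against 1.67 to 2.17 CPM in wild-type neurospheres (-1.15 ± 0.31, SE; edgeR adjusted p = 0.00606).

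**Figure D5:**
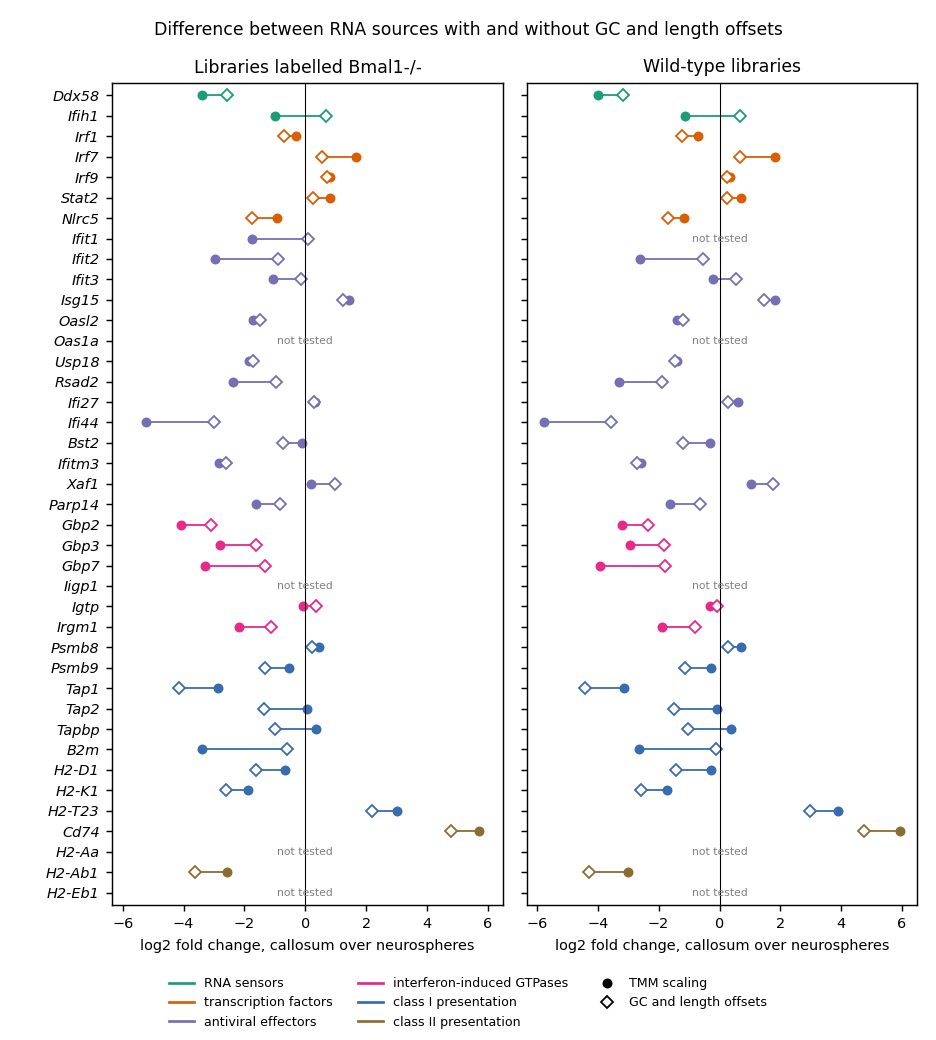
Log2 fold change of callosum over neurospheres for each tested gene with TMM scaling (filled circles) and with GC and length offsets (open diamonds), in libraries labelled Bmal1-/- on the left and wild type on the right, coloured by role. Cd74 and H2-T23 stay to the right of 0 and Tap1, H2-Ab1 and Ddx58 to the left, whereas Ifih1 crosses 0 in both panels and Tapbp crosses it in both (0.38 to -1.03 in wild type).

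Of the 100 other pathway genes, 69 were tested between sources in wild type, with 20 higher and 33 lower in callosum (76.8% called, against 85.8% of all genes). Of other class II genes, 3 of 3 tested were called higher in wild type and 2 of 3 in libraries labelled Bmal1-/- (42% and 35.1% of all genes). Only 2 passed the filter within neurospheres, so not all of the 3 calls in wild type are separate support. Among the 3 was H2-DMa, which edits the class II peptide. It had 22 and 23 CPM in callosum against 5.66, 4.76 and 4.60 CPM in neurospheres labelled Bmal1-/-, and 21.3, 24.1 and 21.3 CPM against 3.58, 3.84 and 5.55 CPM in wild type. Regulators numbered 6 higher and 3 lower of 11 in wild type, and other interferon-stimulated genes 4 higher and 13 lower of 20, where 42% of all genes were called higher and 43.8% lower. With the offsets these counts were 7 and 2 for regulators and 4 and 10 for the other interferon-stimulated genes (backgrounds 39.4% and 40.6%). In libraries labelled Bmal1-/- the other interferon-stimulated genes numbered 2 higher and 16 lower of 22, and 2 higher and 7 lower with the offsets (backgrounds 34% and 35.3%). Cmpk2 was among those higher, at 1.66 ± 0.20 on the log2 scale in wild type (SE), while Rsad2, its neighbour in the response, was lower at -3.30 ± 0.36.

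Among the 40 genes, 10 overlap an exon of some other gene running in the opposite direction, and 9 share at least 10% of their 50-base stretches with another gene, among them Oas1a (57.6%), Ifit3, Tapbp (21%), H2-T23 and H2-D1 (14.3%). The levels of these genes are uncertain to that extent. On chromosome 17, which holds the MHC, lie 11 of the 40.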

How the data were processed

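Per the labels, total RNA went through oligo-dT selection or rRNA removal (which of them is unsaid), then random-primed cDNA synthesis and BGISEQ-500 sequencing. Reads were aligned with STAR 2.7.1a to mm10, per the submitters' processing notes, with no annotation for counting named there. The authors deposited raw read counts per gene for 24411 symbols. Counts ignoring strand were used, since 49.6% to 50.8% of stranded counts fell on the first strand. The 4 rows of unassigned reads entered neither totals nor tests, and unmapped reads took 7.77% to 8.46% in callosum and 13.7% to 22.6% in neurospheres.

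The members and lists were chosen with earlier results of these data known. Levels are CPM with TMM over all 11 libraries. Each comparison was fitted over all genes kept by filterByExpr by the two-sided quasi-likelihood F test (robust glmQLFit and glmQLFTest in edgeR 4.0.16, R 4.3.3) with Benjamini-Hochberg adjustment, and called at an adjusted p under 0.05. The SE is the log2 fold change divided by the square root of F. Replicates differed by far more than sampling noise (chi-square 6.85 to 132 per degree of freedom). Alternatives were RLE scaling, no filter, DESeq2 1.42.0, limma-voom (limma 3.58.1), a replicate block, a striatal covariate, 1 model of all libraries, each library left out, and offsets for GC content and length (loess per library, span 0.3, chosen after seeing the data). Each gene's longest transcript in GENCODE M21 gave GC content and length (95.8% of symbols had one). Members named with values were those with the 2 smallest p per role and genotype comparison, and per role the 2 largest and 1 smallest source differences in wild type, plus pathway genes called or with the 3 smallest p. Others were added where a pattern rested on them (such as H2-K1, H2-D1, H2-Aa, H2-Eb1, Irgm1, Rsad2, Tapbp, Psmb9, H2-DMa, Ciita), after their values were seen. Gene positions follow RefSeq on GRCm38.p6, the mm10 assembly. The test was checked on simulated counts that had the same spread in every gene and library, with changes in well-counted genes only. The replicates here spread unequally and many members had few reads, so that check does not cover them. Some genes of the pathway are not reported here.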

Additional observations from a re-analysis of the deposited data

How the results depend on the processing

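No member was called between genotypes in callosum or in neurospheres, nor for the difference between them, under any setting tried, each library left out included. The fit with a replicate block called 0 in these comparisons, and 9 higher and 19 lower between sources in wild type, and 5 higher and 16 lower in libraries labelled Bmal1-/-. Deviations of same-numbered libraries correlated at 0.05 and 0.01 between genotypes in callosum, at 0.28, -0.01 and 0.31 in neurospheres, at -0.02, 0.05 and -0.001 between sources in wild type, and at 0.12 and 0.153 in libraries labelled Bmal1-/-. Both pairs of the last comparison exceeded 0.1, but there are 2 of them, the other comparisons each held a pair under 0.1 and the labels name no shared origin, so the numbers were not taken to pair libraries. In neurospheres not every library correlated best with its own number. Between sources in wild type, members called higher numbered 10, or 5 with GC and length offsets, and 7 to 10 with 1 library left out. In libraries labelled Bmal1-/- they numbered 6, or 3 to 9 with 1 library left out, 3 without callosum replicate 2 and 9 without neurosphere replicate 1. No share of all genes is given here for the replicate block or with 1 library left out. These counts therefore do not show how the members compare with all genes. The log2 ratio of summed levels was 0.08 between genotypes in callosum, -1.02 between sources in wild type and -1.11 in those labelled Bmal1-/-. As the median of log2 CPM over the members it was 0.28, -0.86 and -0.70. Single genes with small differences turned sign. With GC and length offsets, Ddx58 stood at 0.0443 and H2-Ab1 at -0.21 between genotypes in neurospheres, Ifih1 at 0.68 (wild type) and 0.70 (labelled Bmal1-/-) between sources, and Igtp at 0.34 between sources in those labelled Bmal1-/-. Cd74 in callosum stood at -0.0205 with the striatal covariate. With 1 library left out, genotype differences ranged over -0.0761 to 0.50 for Ifih1 in callosum, and in neurospheres over -0.22 to 0.14 for Ddx58, -0.0738 to 0.15 for Ifih1, -0.24 to 0.0369 for Stat2 and -0.10 to 0.38 for H2-Ab1. Between sources in libraries labelled Bmal1-/- they ranged over -0.42 to 0.22 for Igtp and -0.0492 to 0.48 for Xaf1. Where an arm was left with 1 callosum library, that library is assumed to vary like the others. The cause of these shifts was not tested. With 2 callosum libraries labelled Bmal1-/-, intervals were wide for members near 1 CPM, such as Ifit3.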
